A study of Homo sapiens with 84 samples.

Results

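The 10 genes described here encode the ligand TRAIL (TNFSF10), the TRAIL receptors DR4 (TNFRSF10A) and DR5 (TNFRSF10B), the receptor FAS, the initiator caspase CASP8 and its regulator c-FLIP (CFLAR), and the BCL2 relatives BID, BAK1, BCL2L1 and MCL1. They were picked by name for these roles, with earlier results of these data known, and each was found in 1 row of a table of 57964 genes. Expression was measured in NCI-H1373 and NCI-H647, established human lung cancer lines, with libraries that read the 3' ends of transcripts. Cells of each line received the PARP7 inhibitor RBN-2397 at 10, 30 or 300 nM, the PARP7 inhibitor RBN012337 at 3, 10 or 100 nM, or DMSO, the vehicle, and were taken after 6 or 24 h. That gives 28 groups of 3 libraries, and no group carries a further agent or genetic change. PARP7, the product of TIPARP, attaches single ADP-ribose units to proteins, and the comparisons ask how transcripts respond when it is inhibited. The labels speak of triplicates without naming a culture, plate or day. A p-value here therefore speaks only of how far libraries of the same group lie apart, and that spread may be technical. It was estimated over all groups of a fit together, not from the compared groups alone.

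TRAIL is a membrane ligand that binds DR4 and DR5 on target cells. The bound receptors, like FAS after its own ligand, recruit an adaptor and CASP8, and CFLAR competes with CASP8 in that complex. Active CASP8 cuts BID, and the fragment helps BAK1 and its relative BAX to open the outer mitochondrial membrane, a step that BCL2L1 and MCL1 restrain. TNFSF10 is a known interferon-stimulated gene.

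Levels are given in CPM, estimated counts divided by a library size that was scaled by TMM over all 84 libraries, and they are compared only within a gene. A library of NCI-H1373 held between 630664 and 5994201 counts, and one of NCI-H647 between 1769122 and 6938481. In NCI-H1373 at 24 h the libraries of replicates 2 and 3 were shallow, at 630664 to 1778320 counts. The shallowest of all 84 libraries was DMSO replicate 3 of that line and time, where 1 count makes 1.73 CPM. All 6 treatments of that line and time are compared with it and the other DMSO libraries. In 3 of the 36 treated libraries at 24 h the library with the most similar profile was a DMSO library. These were replicates 1 and 2 of RBN012337 100 nM in NCI-H1373 (r = 0.962 and 0.936) and replicate 2 of RBN012337 100 nM in NCI-H647 (r = 0.958). Their nearest library was in each case the DMSO library of the same number, although their CYP1B1, a target of the aryl hydrocarbon receptor, stood at 138, 122 and 283 CPM and above the highest DMSO library of their line, at 31.1 and 116 CPM. IFIT1, an interferon-stimulated gene, stood at 247 and 104 CPM in the NCI-H1373 pair, above the 12.0 to 31.2 CPM of DMSO. In the NCI-H647 library IFIT1 stood at 6.53 CPM, inside the 1.64 to 17.6 CPM of DMSO and below the 45.4 to 569 CPM of the treated libraries outside RBN012337 100 nM. At 6 h the nearest library was a DMSO library for 2 of 18 treated libraries in NCI-H647 and 0 of 18 in NCI-H1373. Each DMSO library of either line and time in turn had a treated library, not another DMSO library, as its nearest. In NCI-H1373 at 24 h, DMSO replicate 3 had r = 0.890 with replicate 2 of RBN-2397 30 nM and at most 0.848 with DMSO. Treated libraries outnumber DMSO libraries within a line and time. The cause of these resemblances was not tested. Without RBN012337 100 nM in the mean of the treatments at 24 h, the 1 call of a member that changed was that of TNFSF10 in NCI-H1373, and the value is given beside each called member. EPCAM, an epithelial marker, stood at 246 to 514 CPM in NCI-H1373 and at 0.338 to 6.56 CPM in NCI-H647. CDH1 (E-cadherin) was at 0 in 17 of the 42 NCI-H647 libraries, while the keratins KRT8 and KRT18 were present in all of them. Of the leukocyte markers, CD3E was at 0 in every library of both lines. CD14 reached 3.88 CPM, CD79A 1.73 CPM and PTPRC 0.809 CPM, each in NCI-H1373. Of the endothelial markers, CDH5 was at 0 in every NCI-H1373 library but had a median of 2.15 CPM in NCI-H647, where PECAM1 reached 5.75 CPM. VWF was at 0 in 41 of the 42 NCI-H1373 libraries and in 38 of the 42 NCI-H647 libraries. Of the mesenchymal markers, PDGFRB was at 0 in 41 of the 42 NCI-H1373 libraries and reached 11.2 CPM in NCI-H647. COL1A1 reached 12.8 and 7.65 CPM, and COL3A1 0.797 and 0.267 CPM, in NCI-H1373 and NCI-H647. The epithelial KRT19 stood at 446 to 2243 CPM in NCI-H1373 and at 1.89 to 46.7 CPM in NCI-H647. TIPARP itself was higher in the mean of the 6 treatments than in DMSO in NCI-H1373, by 1.18 ± 0.27 on the log2 scale at 6 h (SE, adjusted p = 0.0244) and by 1.04 ± 0.28 at 24 h (adjusted p = 0.0118).

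At 24 h BID was called higher than DMSO in NCI-H1373 under 5 of the 6 treatments, and TNFSF10 in both lines under RBN-2397 300 nM. In both lines all TNFSF10 libraries of RBN-2397 10 nM and of RBN012337 3 nM also lay above DMSO at 24 h, without a call. Mean BID in DMSO of NCI-H1373 was 3.87 CPM at 24 h, against 26.8 CPM at 6 h. The treated median of BID there was also lower at 24 h, at 18.5 CPM, than at 6 h, at 29.5 CPM. TNFRSF10A and BAK1 were lower than DMSO in NCI-H1373 in the mean of the treatments, but neither was called without DMSO replicate 2. The TNFSF10 calls under RBN-2397 300 nM were also lost without DMSO replicate 2 of their line. So were the BID calls for RBN-2397 30 nM and RBN012337 10 nM. In RNA of a whole culture, a change in every cell and a change in some of the cells cannot be told apart. All 10 genes passed the filter on low counts in both lines. Of the 10 genes, the mean of the 6 treatments in NCI-H1373 at 24 h was called higher than DMSO for BID and lower for TNFRSF10A and BAK1, where 12.1% of the 12832 genes tested were called, 6.13% higher and 6.01% lower. A gene is called when its p from edgeR's quasi-likelihood test, adjusted over all genes tested in that comparison, is under 0.05. Across the 6 single treatments of that line and time there were 10 calls, 6 higher and 4 lower, where 5.46% of all gene tests were called, 3.3% higher and 2.16% lower. The mean response of NCI-H647 at 24 h was called, as higher, for TNFSF10 alone, where 4.98% of 14790 genes were called, 2.26% higher and 2.72% lower, and the single treatments gave 1 call, where 1.18% of gene tests were called. No member was called in any comparison with DMSO at 6 h, where the mean response was called for 1.16% of genes in NCI-H1373 and 0.0135% in NCI-H647, and the single treatments called 0.434% of gene tests in NCI-H1373 and 0.00225% in NCI-H647. The 6 treatments of a line and time share their 3 DMSO libraries, so that a DMSO library that stands apart touches all of them. The median change of the 10 genes in the mean response at 24 h was -0.17 in NCI-H1373 and -0.11 in NCI-H647 on the log2 scale, beside -0.01 and -0.02 over all genes tested.

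**Figure D1:**
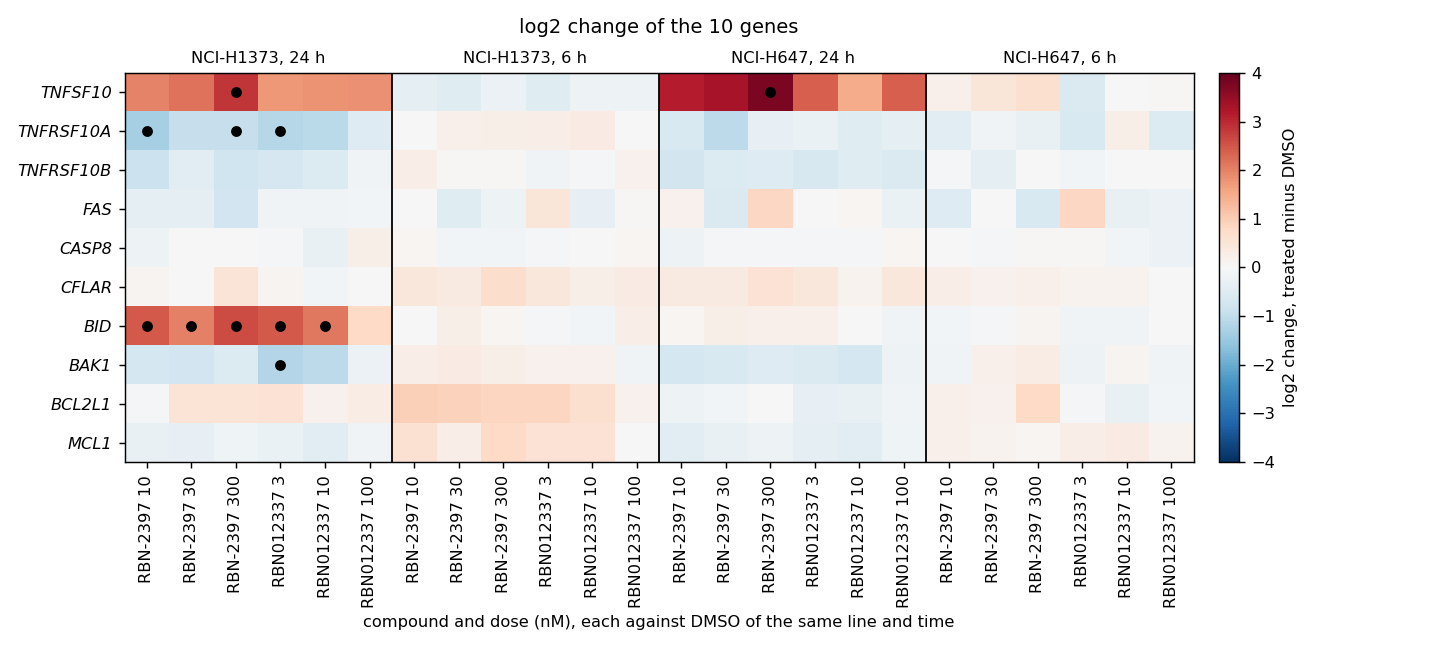
Log2 change of each of the 10 genes (rows) in the 24 treated groups (columns), each set against its own DMSO libraries, on a colour scale of -4 to 4. Black dots mark called genes (adjusted p under 0.05), 10 in NCI-H1373 at 24 h, 1 in NCI-H647 at 24 h and 0 at 6 h.

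TNFSF10 (ENSG00000121858.10, chromosome 3, 172505508 to 172523507 on GRCh38, minus strand) had its highest values at 24 h in both lines. In NCI-H1373 at 24 h, RBN-2397 300 nM gave 23.1, 51.0 and 66.7 CPM in replicates 1 to 3, against 3.46, 8.19 and 10.4 CPM in DMSO. All 3 treated libraries lay above the 3 DMSO libraries, which rest on 6 to 16 counts each. The change was 2.86 ± 0.82 on the log2 scale, or 7.27-fold (SE, n = 3 each, adjusted p = 0.0216). The groups at lower doses and with the other compound were not called, with changes of 1.73 to 2.18. In all, 15 of the 18 treated libraries at 24 h lay above the highest DMSO library. The exceptions were replicate 2 of RBN-2397 30 nM at 4.52 CPM and replicates 1 and 2 of RBN012337 100 nM at 6.28 and 1.87 CPM, while replicate 3 of that last group had 62.0 CPM. The mean of the 6 treatments stood 2.06 ± 0.72 above DMSO and missed the threshold (adjusted p = 0.0556); without RBN012337 100 nM it was 2.11 (adjusted p = 0.0416).

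TNFSF10 in NCI-H647 at 24 h reached 18.1, 24.2 and 88.2 CPM under RBN-2397 300 nM, against 4.63, 1.81 and 3.85 CPM in DMSO. The groups did not overlap, and the change was 3.76 ± 0.87 on the log2 scale, or 13.5-fold (SE, n = 3 each, adjusted p = 0.015), where 3.38% of genes were called. RBN-2397 10 nM gave 11.7, 29 and 43.7 CPM and 30 nM gave 15.5, 27.8 and 51.7 CPM, and neither was called (adjusted p = 0.0537 and 0.0606). Under RBN012337 the values were 8.13, 21.1 and 22.2 CPM at 3 nM, 3.79, 7.65 and 15.8 CPM at 10 nM, and 8.45, 1.96 and 39.2 CPM at 100 nM. Of the 18 treated libraries, 16 lay above the highest DMSO library, and the other 2 were replicate 1 of RBN012337 10 nM and replicate 2 of RBN012337 100 nM. Replicate 3 held the highest value of each of the 6 treated groups. The mean response was 2.74 ± 0.77 (adjusted p = 0.0362), and without RBN012337 100 nM it was 2.81 (adjusted p = 0.0262).

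These calls rest on few libraries. In NCI-H1373 the change under RBN-2397 300 nM was 2.34 (adjusted p = 0.165) without DMSO replicate 1 and 3.15 (adjusted p = 0.0566) without DMSO replicate 2, and 2.78 and 2.51 (adjusted p = 0.0611 and 0.0825) without treated replicates 2 and 3. In NCI-H647 it was 2.68 (adjusted p = 0.126) without treated replicate 3, 3.33 (adjusted p = 0.0968) without DMSO replicate 2 and 3.88 (adjusted p = 0.0596) without DMSO replicate 3. The mean response in NCI-H647 was 2.32 (adjusted p = 0.197) and 2.86 (adjusted p = 0.111) without DMSO replicates 2 and 3. With all libraries of 1 replicate number left out, the change in NCI-H1373 was not called (2.68 to 3.04), and that in NCI-H647 was not called without replicate 2 (3.65) or 3 (2.77). Fitted on the libraries of 1 line and time alone, RBN-2397 300 nM gave 2.83 in NCI-H1373 (adjusted p = 0.101) and 3.76 in NCI-H647 (adjusted p = 0.086), and the mean response in NCI-H647 was 2.75 (adjusted p = 0.128), so these 3 calls all ended there. The direction was the same in each of these alternatives.

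At 6 h TNFSF10 stayed between 1.18 and 6.52 CPM in the 18 treated libraries of NCI-H1373, against 3.69 to 4.83 CPM in DMSO. In NCI-H647 the range at 6 h was 0.531 to 7.75 CPM in treated libraries, against 2.41 to 2.93 CPM in DMSO. The groups overlapped in both lines, and the mean response was -0.33 ± 0.71 in NCI-H1373 and 0.14 ± 0.81 in NCI-H647. The response at 24 h minus that at 6 h was 2.39 ± 1.01 in NCI-H1373 (adjusted p = 0.279) and 2.60 ± 1.13 in NCI-H647 (adjusted p = 0.805), so a difference between the times was not shown in either line. Between the lines the mean responses at 24 h differed by -0.66 ± 1.03 (NCI-H1373 minus NCI-H647, adjusted p = 0.997), with a 95% interval of -2.72 to 1.40 that leaves room for a large difference either way.

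**Figure D2:**
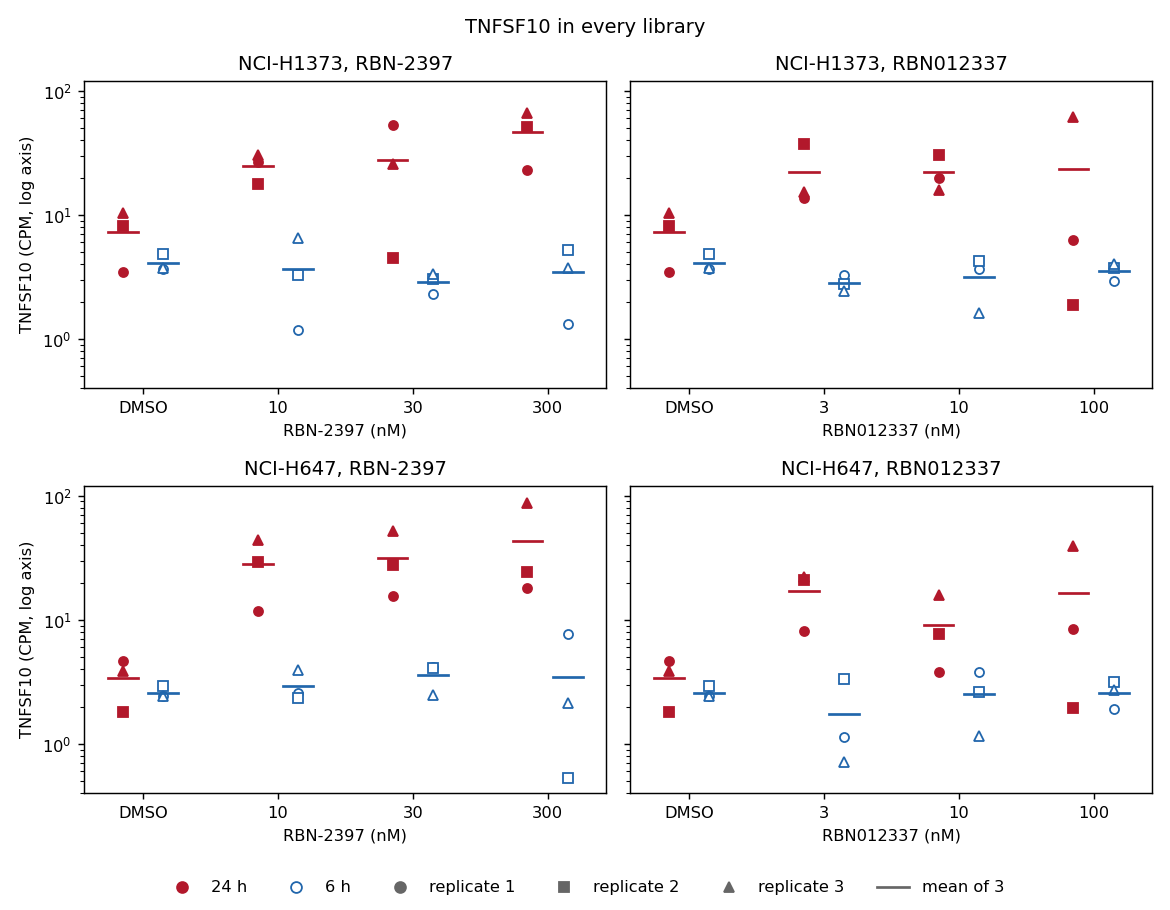
TNFSF10 in every library, in CPM on a log axis, by line (rows) and compound (columns), with dose in nM on the horizontal axis and the same DMSO libraries drawn in both columns. Filled red symbols are 24 h and open blue symbols 6 h, symbol shapes are replicates and bars the mean of 3 libraries; at 24 h the RBN-2397 300 nM libraries lie at 18.1 to 88.2 CPM, against 1.81 to 10.4 CPM in DMSO.

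The stretch before the TNFSF10 start site is shown because the genes that moved most like TNFSF10 are interferon-stimulated. It holds the 250 bases upstream of the RefSeq start on GRCh38.p14 (chr3:172523431-172523680, minus strand), written 5′ to 3′ in lower case, with capitals at the match to the core of an interferon-stimulated response element (GAAA, any 2 bases, GAAA), read on the opposite strand.
TNFSF10 promoter: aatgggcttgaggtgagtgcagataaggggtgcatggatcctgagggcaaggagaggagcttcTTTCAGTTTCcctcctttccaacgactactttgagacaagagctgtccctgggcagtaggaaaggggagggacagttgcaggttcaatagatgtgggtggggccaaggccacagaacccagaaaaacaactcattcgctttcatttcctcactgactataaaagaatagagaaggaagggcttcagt
On either strand 3.02% of 35116 RefSeq promoters of that length held such a match. TNFSF10 was the 1 gene with a match among the 7 of the 10 genes searched. The core of a gamma-activated site, TTCNNNGAA, occurred in 6.57% of promoters and, of the 7, in that of CASP8. The core bound by the aryl hydrocarbon receptor, GCGTG, occurred in 32.2% of promoters and in those of FAS, CASP8, CFLAR, BID and BCL2L1. A gene was counted when any of its listed promoters held the match, which for BID was 2 of 5, while the percentages are of single promoters, so the counts of genes cannot be read against them. A match is a run of letters and does not show binding.

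Across the 14 group means of NCI-H1373, the transcripts that followed TNFSF10 most closely were IFI16 (Pearson r = 0.984), PARP9 (0.977), IFI27 (0.972), the antisense transcript AL441992.1 (0.969) and SP110 (0.969), among 7974 genes with a mean of at least 10 CPM. In NCI-H647 they were PLSCR1 (0.987), MX2 (0.985), IFI44L (0.983), OAS2 (0.982) and XAF1 (0.978), among 8220 genes. IFI16, PARP9, IFI27, SP110, PLSCR1, MX2, IFI44L, OAS2 and XAF1 are known interferon-stimulated genes. The groups share libraries' depth and the split between 6 and 24 h, so these values describe likeness only.

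TNFRSF10A, which encodes DR4, stood higher in NCI-H1373 than in NCI-H647. DMSO libraries of NCI-H1373 had 14.8, 17.7 and 21.2 CPM at 6 h, against 7.56, 2.93 and 5.36 CPM in NCI-H647, and the lines did not overlap. At 24 h they had 27.1, 51.2 and 8.66 CPM in NCI-H1373, against 7.09, 12.2 and 7.14 CPM in NCI-H647, and the lowest NCI-H1373 library, with 5 counts, lay within the range of NCI-H647. The difference was 1.60 ± 0.37 on the log2 scale at 6 h (NCI-H1373 minus NCI-H647, adjusted p = 0.000378) and 1.77 ± 0.35 at 24 h (adjusted p = 5.08e-05). It held under each alternative tried, which between the lines did not include leaving out a single DMSO library on its own. Members called in DMSO between lines numbered 4 at each time, where 33.4% of the 16178 genes tested were called at 6 h and 29% at 24 h, so the count of members is close to the share of all genes.

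At 24 h in NCI-H1373, TNFRSF10A had 10.7 to 26.8 CPM in the 18 treated libraries, with a median of 15.5, against 27.1, 51.2 and 8.66 CPM in DMSO replicates 1 to 3. DMSO replicates 1 and 2 lay above all treated libraries and DMSO replicate 3, with 5 counts, lay below all of them. The mean of the 6 treatments was lower by -0.98 ± 0.22 (adjusted p = 0.00311), and by -1.08 without RBN012337 100 nM (adjusted p = 0.00107). The single treatments were called in RBN-2397 10 nM (-1.33 ± 0.31, adjusted p = 0.00894), RBN-2397 300 nM (-0.91 ± 0.31, adjusted p = 0.0456) and RBN012337 3 nM (-1.13 ± 0.31, adjusted p = 0.0182). Without DMSO replicate 2 the mean response was -0.39 (adjusted p = 0.381) and all 3 single calls were lost, at -0.74, -0.32 and -0.54 (adjusted p = 0.169, 0.593 and 0.329). The calls for RBN-2397 300 nM and RBN012337 3 nM were also lost without DMSO replicate 1, at -1.03 and -1.24 (adjusted p = 0.0783 and 0.0613), and without single treated libraries, at -0.85 to -0.98 and at -0.98 and -1.21, and in the fit of that line and time alone, at -0.95 and -1.17 (adjusted p = 0.0915 and 0.054). In NCI-H647 the mean response was -0.51 ± 0.30 (adjusted p = 0.345), with 2.70 to 8.99 CPM in treated libraries against 7.09 to 12.2 CPM in DMSO.

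TNFRSF10B, which encodes DR5, was not called against DMSO in any of the 24 treatments. In NCI-H1373 at 24 h the treated libraries lay at 21.3 to 54.5 CPM, inside the DMSO values of 48.4, 74.2 and 6.93 CPM. The treated libraries of NCI-H647 at 24 h lay at 18.9 to 32.3 CPM, against 15.7, 69.6 and 17.0 CPM in DMSO. DMSO replicate 2 there lay above all 18 treated libraries and DMSO replicates 1 and 3 below all of them, and the fitted mean response was -0.59 ± 0.23 (adjusted p = 0.129). Without DMSO replicate 2 it was 0.55 (adjusted p = 0.212), and without DMSO replicate 1 it was -0.91 (adjusted p = 0.00798), so its sign and its call depend on single DMSO libraries. Reads of overlapping genes on the opposite strand may enter these counts, since strand handling is not given. RHOBTB2, which overlaps the end of TNFRSF10B, held 1079 counts over all libraries beside 9022 for TNFRSF10B. AC100861.1, which overlaps TNFRSF10A at the annotated start of both, held 767 beside 3347 for TNFRSF10A.

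FAS was the lowest member in counts, with at most 43 in a library. Its group means ran from 2.78 to 7.87 CPM in NCI-H1373 and from 0.703 to 5.85 CPM in NCI-H647. No treatment was called, and the mean response at 24 h was -0.33 ± 0.37 in NCI-H1373 and 0.04 ± 0.47 in NCI-H647. DMSO libraries at 6 h had 4.93, 2.68 and 3.74 CPM in NCI-H1373, against 1.22, 1.46 and 1.34 CPM in NCI-H647, a difference of 1.57 ± 0.62 (adjusted p = 0.0427) that was not called once all libraries of any single replicate number were left out (1.14 to 1.78). ACTA2 overlaps FAS on the opposite strand at the annotated start of both genes, while the libraries read 3' ends. ACTA2 held 1220 counts beside 1032 for FAS, and a part of ACTA2 reads in these values was not tested.

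CASP8, the caspase recruited by DR4, DR5 and FAS, moved little. At 24 h the treated libraries of NCI-H1373 had 36.3 to 82.6 CPM, against 53.2 to 65.9 CPM in DMSO, and those of NCI-H647 had 27 to 44.0 CPM, against 29 to 41.2 CPM in DMSO. The mean responses at 24 h were -0.06 ± 0.16 and -0.06 ± 0.17, with 95% intervals of -0.38 to 0.26 in NCI-H1373 and -0.40 to 0.28 in NCI-H647. These intervals leave no room for a change of 1 on the log2 scale in the mean response. CASP8 was higher in NCI-H1373 than in NCI-H647 in DMSO, by 0.57 ± 0.21 at 6 h (adjusted p = 0.0281) and 0.72 ± 0.21 at 24 h (adjusted p = 0.0058). The first was not called once any single replicate number was left out (0.34 to 0.71), nor by DESeq2 (0.50, adjusted p = 0.0641), and the second was 0.40 without replicate 1 (adjusted p = 0.32).

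CFLAR, the competitor of CASP8, lay above DMSO in many libraries without a call. Treated NCI-H647 libraries at 24 h had 65.7 to 134 CPM, with a median of 90.6, against 67.9, 73.0 and 63.2 CPM in DMSO, and 16 of 18 lay above the highest DMSO library. The largest single change there was 0.58 ± 0.19 under RBN-2397 300 nM (adjusted p = 0.0706), and the mean response was 0.39 ± 0.15 (adjusted p = 0.118). In NCI-H1373 at 6 h the treated libraries had 57.4 to 119 CPM, against 71.6, 49.9 and 76.7 CPM in DMSO, and the mean response was 0.42 ± 0.18 (adjusted p = 0.265). The libraries read transcript ends, so the long and short forms of CFLAR, which differ in function, are not told apart, and the same holds for the forms of MCL1, BCL2L1, FAS and CASP8.

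BID (ENSG00000015475.18, chromosome 22, 17734138 to 17774770 on GRCh38, minus strand), the link from CASP8 to the mitochondrion, gave the clearest difference between the lines. DMSO libraries at 6 h had 33.0, 26.8 and 20.6 CPM in NCI-H1373, against 149.6, 146 and 129 CPM in NCI-H647. At 24 h they had 5.58, 2.56 and 3.47 CPM in NCI-H1373, against 246, 72.0 and 139.5 CPM in NCI-H647. BID was 5.18-fold lower in NCI-H1373 than in NCI-H647 at 6 h (log2 difference -2.37 ± 0.33, adjusted p = 2.3e-08) and 35.5-fold lower at 24 h (-5.15 ± 0.43, adjusted p = 5.13e-16). Both differences held under each alternative tried, which between the lines did not include leaving out a single DMSO library on its own.

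In NCI-H1373 BID fell in DMSO between the times, by 2.66 ± 0.45 on the log2 scale at 24 h minus 6 h (adjusted p = 0.000489), and the 3 libraries at 24 h lay below the 3 at 6 h. The values at 24 h rest on 21, 5 and 2 counts in replicates 1 to 3. Of the members, BID and MCL1 were called between the times in DMSO, where 9.12% of 12832 genes were. Without replicate 1 or 2 the change in BID was -3.01 or -2.37 and missed the threshold (adjusted p = 0.0814 and 0.0709). In NCI-H647 BID in DMSO changed by 0.12 ± 0.26 between the times (adjusted p = 0.916), and no member was called, where 0.284% of genes were.

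Treated NCI-H1373 cells at 24 h held more BID transcript than DMSO cells of that time. RBN-2397 gave 34.6, 20.6 and 11.6 CPM at 10 nM, 26.4, 13.6 and 9.35 CPM at 30 nM, and 32.7, 24.8 and 17.6 CPM at 300 nM. RBN012337 gave 30.6, 15.3 and 21.4 CPM at 3 nM and 21.6, 13.8 and 19.3 CPM at 10 nM. All 15 of these libraries lay above the 3 DMSO libraries. RBN012337 100 nM stood apart with 4.96, 4.37 and 13.6 CPM, and 2 of its 3 libraries lay within the range of DMSO.

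The share of all genes called was 7.33%, 2.16% and 11.9% for RBN-2397 at 10, 30 and 300 nM, and 8.5% and 2.68% for RBN012337 at 3 and 10 nM. The changes in BID against DMSO were 2.44 ± 0.45 (adjusted p = 0.0018), 2.02 ± 0.46 (adjusted p = 0.0119) and 2.60 ± 0.45 (adjusted p = 0.000419) for RBN-2397 at 10, 30 and 300 nM. For RBN012337 they were 2.44 ± 0.45 at 3 nM (adjusted p = 0.00164), 2.12 ± 0.46 at 10 nM (adjusted p = 0.00911) and 0.80 ± 0.50 at 100 nM (adjusted p = 0.992). The mean response was 2.07 ± 0.40, or 4.20-fold (adjusted p = 0.000807), and without RBN012337 100 nM it was 2.32 (adjusted p = 0.000153). When single DMSO libraries were left out it ran from 1.79 to 2.65 and was still called (adjusted p = 0.00157 to 0.0179), and with all libraries of replicate 1 left out it was 2.34 and missed the threshold (adjusted p = 0.0567). The call for RBN-2397 30 nM was lost without DMSO replicate 1 (2.60, adjusted p = 0.0582), DMSO replicate 2 (1.75, adjusted p = 0.0846) or treated replicate 1 (1.44, adjusted p = 0.206), and that for RBN012337 10 nM without DMSO replicate 2 (1.84, adjusted p = 0.0972) or treated replicate 1 (1.96, adjusted p = 0.0585). In the fit of that line and time alone these changes were 1.99 and 2.09 (adjusted p = 0.0567 and 0.0516). With all libraries of replicate 2 left out none of the 5 treatments was called for BID (1.86 to 2.34, adjusted p = 0.0598 to 0.273), and without those of replicate 1 only RBN-2397 300 nM was, the other 4 lying at 1.96 to 2.64 (adjusted p = 0.167 to 0.607).

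At 6 h the treated libraries of NCI-H1373 had 15.2 to 39.2 CPM of BID, against 20.6 to 33.0 CPM in DMSO, and the mean response was 0.07 ± 0.27. Their median of 29.5 CPM lay above the treated median of 18.5 CPM at 24 h, a difference that was not tested. The response at 24 h exceeded that at 6 h by 2.00 ± 0.47 (adjusted p = 0.0404), and BID was the 1 member called, where 0.53% of genes were. In NCI-H647 at 24 h the treated libraries had 72.7 to 215 CPM, against 72.0 to 246 CPM in DMSO, with a mean response of 0.09 ± 0.20 and a 95% interval of -0.31 to 0.50. The response in NCI-H1373 exceeded that in NCI-H647 by 1.96 ± 0.44 at 24 h (adjusted p = 0.0192), and again BID was the 1 member called, where 0.47% of genes were. With 1 replicate number left out from both lines the difference was 1.92 to 2.11 and was not called, and the difference between times was 2.21 without replicate 1 and 1.92 without replicate 2 (adjusted p = 0.497 and 0.365).

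**Figure D3:**
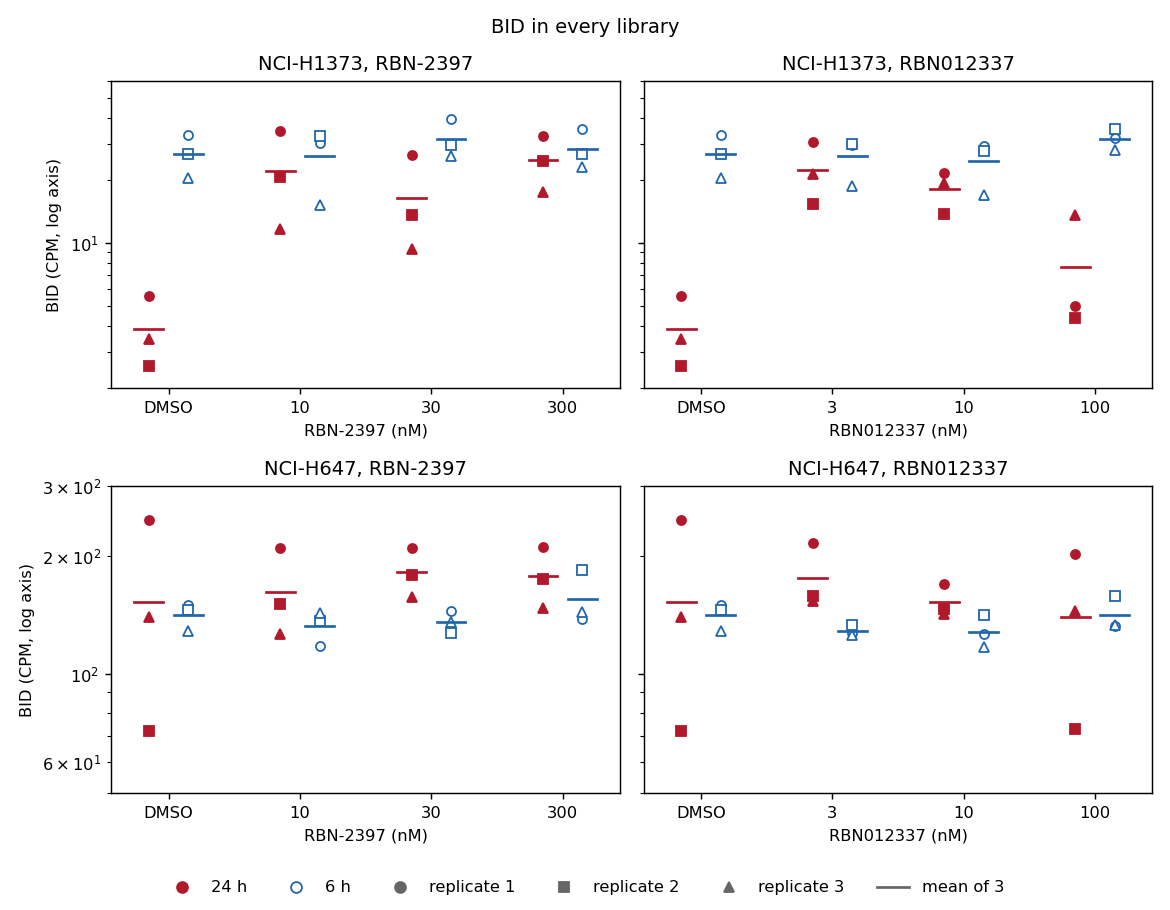
BID in every library, in CPM on a log axis whose range differs between the lines, by line (rows) and compound (columns), with dose in nM on the horizontal axis and the same DMSO libraries drawn in both columns. Filled red symbols are 24 h and open blue symbols 6 h, symbol shapes are replicates and bars the mean of 3 libraries; in NCI-H1373 at 24 h DMSO lies at 2.56 to 5.58 CPM and RBN012337 100 nM at 4.37 to 13.6 CPM.

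In NCI-H647 the lowest BID values at 24 h came from replicate 2 of RBN012337 100 nM and replicate 2 of DMSO, at 72.7 and 72.0 CPM, and the next lowest library had 127 CPM. Both are among the libraries whose profiles resembled each other, and that resemblance was not tested as a part of the BID values. Across the 14 group means of NCI-H1373, BID was followed most closely by MCM7 (r = 0.985) and MCM2 (0.984), subunits of the replicative helicase, by the glycolytic enzyme ENO1 (0.984) and by the elongation factor subunit EEF1G (0.982). In NCI-H647, where BID varied less, the closest were RFC2 (0.924), a subunit of the clamp loader of DNA replication, MRPS16 (0.922), UQCC2 (0.921), TUBA1B (0.919) and HIRIP3 (0.918).

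BAK1, a pore-forming member that BID fragments activate, had 6.13 to 26.2 CPM in the treated libraries of NCI-H1373 at 24 h, with a median of 17.0, against 27.6, 36.3 and 13.9 CPM in DMSO. DMSO replicates 1 and 2 lay above all 18 treated libraries, and DMSO replicate 3, with 8 counts, lay among them. The mean response was -0.75 ± 0.24 (adjusted p = 0.0352), and -0.85 without RBN012337 100 nM (adjusted p = 0.0143). It was -0.74 (adjusted p = 0.195) without DMSO replicate 1 and -0.47 (adjusted p = 0.358) without DMSO replicate 2. The 1 single call, RBN012337 3 nM at -1.16 ± 0.33 (adjusted p = 0.0259), was lost without either of these libraries (-1.16 and -0.89, adjusted p = 0.109 and 0.147) and without treated replicate 2 or 3 (-0.90 and -1.24, adjusted p = 0.129 and 0.0512). In NCI-H647 the mean response at 24 h was -0.55 ± 0.24 (adjusted p = 0.18). In DMSO at 24 h BAK1 was higher in NCI-H1373 than in NCI-H647 by 0.85 ± 0.33 (adjusted p = 0.04), which was not called once any single replicate number was left out (0.74 to 0.90) or by DESeq2 (0.80, adjusted p = 0.0612).

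MCL1, a short-lived restrainer of BAK1, had 85.2 to 140.2 CPM in the treated libraries of NCI-H1373 at 24 h, inside the DMSO values of 187, 169.9 and 58.9 CPM. Those of NCI-H647 at 24 h had 69.2 to 106 CPM, against 57.7, 193 and 54.9 CPM in DMSO, so that DMSO replicate 2 lay above all 18 and DMSO replicates 1 and 3 below all 18. No treatment was called, and the mean response was -0.27 ± 0.22 in NCI-H1373 and -0.31 ± 0.19 in NCI-H647. With all libraries of replicate 2 left out, RBN-2397 300 nM in NCI-H647 changed sign to 0.81 and was called (adjusted p = 0.0415). In NCI-H1373 MCL1 rose in DMSO, with 187, 169.9 and 58.9 CPM at 24 h, against 60.9, 39.2 and 117 CPM at 6 h. The times overlapped, and the change of 1.0 ± 0.30 (adjusted p = 0.0306) was lost without replicate 1 (0.66, adjusted p = 0.488) and without replicate 2 (0.57, adjusted p = 0.529).

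BCL2L1, which encodes BCL-xL, was called in no comparison. Its group means ran from 8.81 to 19.6 CPM in NCI-H1373 and from 7.61 to 17.7 CPM in NCI-H647. The mean response in NCI-H1373 was 0.34 ± 0.44 at 24 h and 0.73 ± 0.43 at 6 h (adjusted p = 0.694 and 0.438), with 3.61 to 25.4 CPM in treated libraries at 6 h, against 4.29 to 15 CPM in DMSO.

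**Figure D4:**
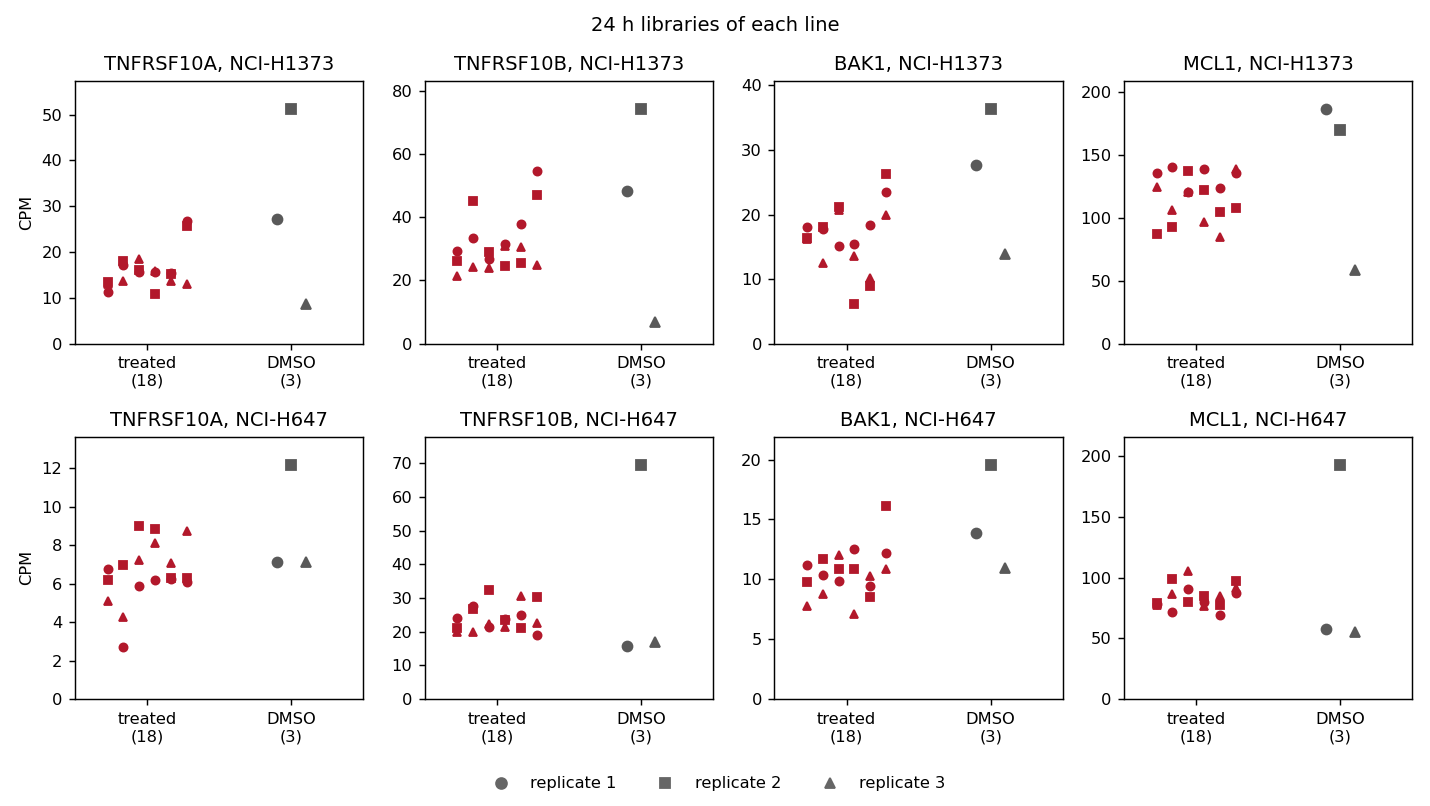
TNFRSF10A, TNFRSF10B, BAK1 and MCL1 in the 24 h libraries of NCI-H1373 (top) and NCI-H647 (bottom), in CPM on axes that start at 0, with the 18 treated libraries at the left of each panel (in the order RBN-2397 10, 30 and 300 nM, then RBN012337 3, 10 and 100 nM) and the 3 DMSO libraries at the right. Symbol shapes are replicates; DMSO replicate 3 of NCI-H1373 is lowest for TNFRSF10A, TNFRSF10B and MCL1, and DMSO replicate 2 of NCI-H647 is highest for all 4 genes.

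The compounds share a single dose, 10 nM, and their other doses differ. RBN-2397 minus RBN012337 at 10 nM was compared for the 10 genes in both lines at both times, which makes 4 pairs of groups and 40 member tests. No gene of the whole table was called in any pair, also with p-values adjusted over the 4 pairs, and 1 member test had an unadjusted p under 0.05. That was TNFSF10 in NCI-H647 at 24 h, with 11.7, 29 and 43.7 CPM under RBN-2397, against 3.79, 7.65 and 15.8 CPM under RBN012337, a difference of 1.64 ± 0.75 on the log2 scale (95% interval 0.10 to 3.18, adjusted p = 1 by edgeR). BID in NCI-H1373 at 24 h differed by 0.32 ± 0.38 (95% interval -0.44 to 1.08). Over the 40 tests the median size of the difference was 0.20 and the median half-width of the 95% interval 0.65, so that a difference of that size between the compounds remains within these intervals.

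**Figure D5:**
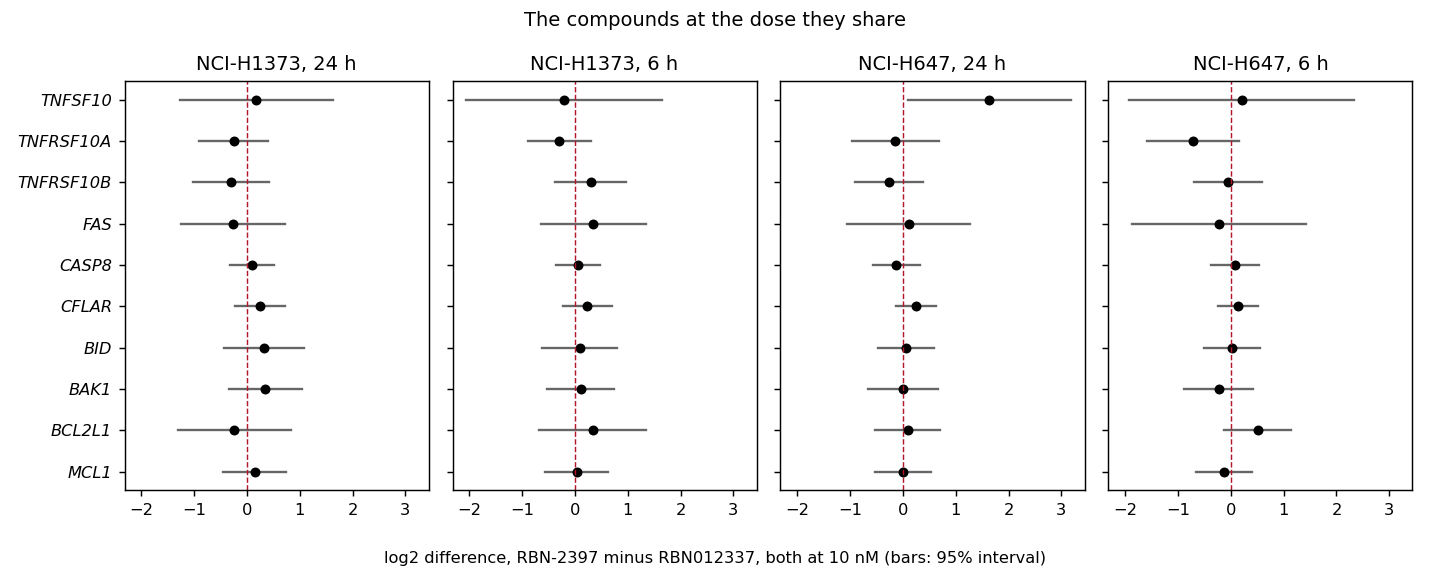
Log2 difference of RBN-2397 minus RBN012337, both at 10 nM, for the 10 genes in each line and time; points are the fitted differences and bars their 95% intervals. The widest interval is that of TNFSF10 in NCI-H647 at 6 h, -1.93 to 2.34, and its interval there at 24 h, 0.10 to 3.18, is the 1 that does not reach 0.

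Within a compound, the top dose minus the lowest dose called no member at either time in either line, where at most 0.125% of genes were called. The largest such difference was BID under RBN012337 in NCI-H1373 at 24 h, with 4.96, 4.37 and 13.6 CPM at 100 nM, against 30.6, 15.3 and 21.4 CPM at 3 nM. The groups did not overlap, and the difference was -1.64 ± 0.41 (adjusted p = 0.0768). Of the 3 libraries at 100 nM, 2 are those named above whose profiles lay nearest to DMSO. DESeq2 called it (-1.62, adjusted p = 0.0316), and so did the edgeR fit without replicate 3 (-2.37, adjusted p = 0.00213).

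The wider pathway was described over 44 further genes, of which 31 passed the filter on counts in NCI-H1373 and 37 in NCI-H647. In the mean response at 24 h in NCI-H1373, 3 of the 31 rose and 5 fell, with a median of 0.02, beside the 12.1% of all genes called. TNFRSF21, a death receptor known as DR6, rose by 1.60 ± 0.25 (adjusted p = 0.000114), with 20.6 to 64.8 CPM in treated libraries against 10.4 to 18.1 CPM in DMSO. TNFRSF1A, the main receptor for TNF, rose by 1.13 ± 0.32 (adjusted p = 0.0176), with 28.7 to 77.7 CPM against 17.3 to 33.2 CPM. BAD, a BCL2 relative that binds BCL2L1, rose by 0.89 ± 0.24 (adjusted p = 0.0112). CYLD, a deubiquitinase of the TNF receptor complex, fell by 0.99 ± 0.23 (adjusted p = 0.00455), and the ubiquitin ligase BIRC2 (cIAP1) fell by 0.82 ± 0.23 (adjusted p = 0.0148). BIRC5 (survivin) fell by 0.38 ± 0.12 (adjusted p = 0.0341). The 2 others that fell, named to complete the count, were CYCS, cytochrome c, by 0.51 ± 0.17, and the kinase RIPK1, by 0.84 ± 0.28 (adjusted p = 0.0433 and 0.0468). Of these 8 genes, the groups were apart for TNFRSF21 alone. CYLD had 9.09 to 23.5 CPM in treated libraries against 13.9 to 31.9 CPM in DMSO, and BIRC2 had 16.9 to 55.5 CPM against 36.3 to 73.9 CPM. CYCS had 131 to 297 CPM in treated libraries against 152 to 425 CPM in DMSO, and RIPK1 had 2.30 to 16.5 CPM against 8.66 to 24.6 CPM.

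Of the 37 pathway genes tested in NCI-H647 at 24 h, 3 rose and 2 fell, with a median of -0.13, beside 4.98% of all genes called. TNFRSF21 rose by 0.67 ± 0.20 (adjusted p = 0.041), with 16.1 to 30.4 CPM in treated libraries against 9.34 to 16.7 CPM in DMSO. TNFRSF11B, which encodes the soluble TRAIL-binding decoy osteoprotegerin, rose by 1.75 ± 0.40 (adjusted p = 0.00935), with 13.9 to 119 CPM against 8.22 to 22 CPM. The receptor TNFRSF25 rose by 1.50 ± 0.45 (adjusted p = 0.0431), with 2.16 to 11.3 CPM in treated libraries against 1.10 to 2.78 CPM in DMSO. CYLD fell by 0.98 ± 0.21 (adjusted p = 0.00615), with 8.99 to 21.3 CPM in treated libraries against 23.4 to 29.6 CPM in DMSO, and the groups did not overlap. CASP9, the caspase of the apoptosome, fell by 1.03 ± 0.30 (adjusted p = 0.0365), with 1.83 to 6.31 CPM in treated libraries against 4.39 to 10.5 CPM in DMSO. By group, 2 of 3 tested ligands, receptors and decoys rose in NCI-H1373 and 3 of 5 in NCI-H647, where 6.13% and 2.26% of all genes did. Of the adaptors and kinases 2 of 7 fell in NCI-H1373 and 1 of 7 in NCI-H647, and of the caspases and apoptosome genes 1 of 7 and 1 of 8. Of the IAPs and their antagonists 2 of 5 fell in NCI-H1373 and 0 of 5 in NCI-H647, where 6.01% and 2.72% of all genes fell. Of the other BCL2 relatives 1 of 9 rose in NCI-H1373 and 0 of 12 were called in NCI-H647. Differences between these groups of genes were not tested. Calls of pathway genes are given for the reported fits only, without the alternatives shown for the members, and they rest on the same DMSO libraries. At 6 h no pathway gene was called in the mean response of either line.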

How the data were processed

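The deposited table gives estimated counts for every gene in 84 libraries, made with Salmon and hg38 per the submitters' processing notes. The files and labels used here do not say how strand and molecular identifiers were handled, and name no annotation. Of the 57964 identifiers, 57845 matched GENCODE 29. The estimated counts were rounded and tested with edgeR 4.0.16 in R 4.3.3 (TMM, filterByExpr, robust quasi-likelihood F test): each line in 1 fit of 42 libraries and 14 groups, and differences between lines in 1 fit of 84. P-values were adjusted by Benjamini-Hochberg over all genes of a contrast, with a threshold of 0.05. Errors beside a log2 change are standard errors from these fits. The code was tested on simulated data. Chi-square tests of the 84 pairs of replicates gave 3.90 to 44.1 for each degree of freedom, so within a group no library appears to be deposited more than once.

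The genes, the pathway list and the rules were chosen with earlier results of these data known. The rule for named genes takes all 10 members, up to 6 called pathway genes per mean response by smallest adjusted p, and the 5 genes most like TNFSF10 and BID in each line, by Pearson correlation of group means of log2(CPM + 0.5); 1 of these genes is not reported here. A pathway gene with 2 rows of the same symbol, DIABLO, was left out. The nearest library was sought by correlation over genes of at least 20 CPM. The second compound name is spelled as in the labels, and RBN-2397 follows the design text where the sample labels write RBN012397. Alternatives were DESeq2 1.42.0, RLE scaling, no filter, a replicate block, fits within a line and time, and leaving out libraries. Leaving out single treated libraries, and leaving RBN012337 100 nM out of the mean, were added after the data were seen. Where a library was left out, the lone or paired libraries of a group share the spread estimated over all groups.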

Additional observations from a re-analysis of the deposited data

Results flagged for a closer look

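BID is listed for a closer look because its response differed between groups by a test of the difference itself. The mean response at 24 h in NCI-H1373 exceeded that in NCI-H647 by 1.96 on the log2 scale (SE 0.44, adjusted p = 0.0192, edgeR's quasi-likelihood test), with 2.07 ± 0.40 in NCI-H1373 and 0.09 ± 0.20 in NCI-H647. Within NCI-H1373 the mean response at 24 h exceeded that at 6 h by 2.00 (SE 0.47, adjusted p = 0.0404), with 2.07 ± 0.40 at 24 h and 0.07 ± 0.27 at 6 h. Beside both values stands the level in DMSO, which in NCI-H1373 was 3.87 ± 1.55 CPM at 24 h and 26.8 ± 6.24 CPM at 6 h (SD, n = 3 each), and which in replicates 1, 2 and 3 at 24 h rests on 21, 5 and 2 counts. The part of depth in these differences was not tested. Leaving out 1 replicate number ended the call between the lines each time, with differences of 1.92, 2.11 and 1.93 without replicates 1, 2 and 3 (adjusted p = 0.267, 0.137 and 0.154). Between the times the call was lost without replicate 1 (2.21, adjusted p = 0.497) and without replicate 2 (1.92, adjusted p = 0.365), and it held without replicate 3 (2.00, adjusted p = 0.0126).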

How the results depend on the processing

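Of 27 called results of single members, 4 were called in the same direction under every alternative tried: BID and TNFRSF10A between the lines in DMSO, at 6 h and at 24 h. Comparisons between the lines faced fewer alternatives than those with DMSO. They had no fit within a line and time, and no single DMSO or treated library was left out on its own. Of 453 uncalled results, 38 were called under some alternative. MCL1 in NCI-H647 changed sign without replicate 2, to 0.81 for RBN-2397 300 nM (adjusted p = 0.0415) and to -0.88 for DMSO at 24 h minus 6 h (adjusted p = 0.0489); the cause was not tested. Counts of member calls over the 6 treatments in NCI-H1373 at 24 h, 10 as reported, were 5 within that line and time and 0 to 17 with libraries left out; in the mean response, 3 as reported, they were 0 to 4 with libraries left out. At 6 h in that line, 0 as reported, they were 0 to 3 over the treatments and 0 to 1 in the mean with libraries left out (MCL1). In NCI-H647 at 24 h, 1 as reported, the treatments gave 4 with DESeq2, 6 without a filter, 0 within that line and time and 0 to 5 with libraries left out, and the mean response gave 0 within that line and time and 0 to 2 with libraries left out. Top minus lowest dose in NCI-H1373 at 24 h, 0 as reported, gave 1 (BID) with DESeq2, without a filter and without replicate 3. RBN-2397 minus RBN012337 at 10 nM in NCI-H647 at 24 h, 0 as reported, gave 1 without a filter (TNFSF10), as did the response at 24 h minus 6 h there. That difference in NCI-H1373, 1 as reported, gave 2 with DESeq2, without a filter and without RBN012337 100 nM, and 0 to 3 with libraries left out. DMSO at 24 h minus 6 h gave 0 in NCI-H1373, where 2 are reported, without replicate 1 or 2, and 1 in NCI-H647, where 0 are reported, without replicate 2. Between lines in DMSO, 4 as reported at each time, 2 were called without a filter at both times, 2 with RLE scaling at 6 h, and 2 to 4 with libraries left out, and the mean response at 24 h, 1 as reported, gave 0 without replicate 1, 2 or 3.

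Same-numbered libraries of different groups deviated together, with a correlation above 0.1, in 58, 37, 39 and 40 of 63 pairs (6 and 24 h of NCI-H1373, then of NCI-H647), which is not every pair, and the labels tie the numbers to no batch, so the reported fits hold no block. As a hint from the data and not from the design, 20, 21, 21 and 20 of 21 libraries correlated best with their own number. The median correlation was 0.218, 0.125, 0.118 and 0.145 within a number, against -0.135, -0.0956, -0.0670 and -0.0644 between numbers. The count of pairs above 0.1 therefore cannot show that the numbers are unrelated. With the replicate block, member calls were 1 over the treatments in NCI-H1373 at 6 h (CFLAR), 5 over those in NCI-H647 at 24 h, 1 for top minus lowest dose in NCI-H1373 at 24 h and 2 for its response at 24 h minus 6 h. Of the 27 called results the block ended 1, CASP8 between the lines in DMSO at 6 h (0.32, adjusted p = 0.248).

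Depth limits the least abundant values: BID in NCI-H1373 DMSO at 24 h rests on 2 to 21 counts per library, FAS on at most 43 counts in NCI-H1373 and 30 in NCI-H647, and TNFSF10 in DMSO at 24 h on 6 to 16 counts in NCI-H1373 and 7 to 15 in NCI-H647.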
